A study of Homo sapiens with 3 samples.

Results

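Genes whose symbol ends in -AS, with or without a digit, are named as antisense to a neighbouring gene, and they are described here with the genes they lie opposite. The members were the antisense-named genes with at least 100 counts summed over the 3 libraries, after VIM-AS1, PSMB8-AS1 and PRMT5-AS1 had been left out by the rule. This gave 151 members of the 999 antisense-named genes and of the 26485 genes in all. For each member the partner was the opposite-strand gene that shares most exon bases with it in the gene models of the deposited table. A partner was found for 148 members, and these are 146 distinct genes, since HIF1A and ST7 each stand opposite 2 members. PTOV1-AS1, RBM12B-AS1 and CIRBP-AS1 shared no exon base with an opposite-strand gene. The members were chosen by their own counts, so that a member has more counts than its partner is favoured by the choice, and levels are given as a description without a test.

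The RNA came from HEC1B, an established human endometrial cancer cell line, at 48 h. The knockdown group holds 2 libraries made with different siRNAs targeting PRMT6, an enzyme that methylates arginines of histones, and they are called siPRMT6-1 and siPRMT6-2. The control group is 1 library with the siRNA labelled siNC, whose genotype is given as WT. All libraries were made from 10 ng of total RNA of this cell line with a stranded low-input kit, and nothing in the labels says that they came from separate cultures. Totals were 381628 counts in siPRMT6-1, 362080 in siPRMT6-2 and 410916 in siNC. PRMT6 itself had 4 counts in siPRMT6-1, 7 in siPRMT6-2 and 25 in siNC. By the exact Poisson distribution the 95% intervals of these counts run from 1.09 to 10.2, from 2.81 to 14.4 and from 16.2 to 36.9. These intervals are of raw counts and are not scaled for library depth. In counts both knockdown libraries lay below siNC. Among epithelial markers KRT8 had 681 counts in siPRMT6-1, 770 in siPRMT6-2 and 1329 in siNC, while KRT19 and CDH1 were at 0 in all 3 libraries. KRT18, which lies opposite KRT8, had 85, 95 and 129, and PAX8, opposite PAX8-AS1, 117, 227 and 158, in siPRMT6-1, siPRMT6-2 and siNC. KRT7, EPCAM, MUC1, CLDN3 and CLDN4 had 0 to 8 counts in each library. COL1A1 held 354, 370 and 515 of the fibroblast markers' sums of 360, 372 and 531, in the same order. Of endothelial markers PECAM1 had 16, 5 and 19, and CDH5 and KDR were at 0. Of 6 leukocyte markers PTPRC, CD14, CD3E and CD79A were at 0 in all 3 libraries, and CD68 alone had 19 counts in siPRMT6-1, 56 in siPRMT6-2 and 17 in siNC, out of sums of 19, 57 and 17. The siPRMT6-2 library stood apart at the top of the fold changes, where the largest log2 fold change of all genes tested was 7.51, against 2.58 with siPRMT6-1.

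Natural antisense transcripts are RNAs transcribed from the DNA strand opposite to a gene, often from a shared promoter region or across the end of that gene. Some regulate the gene they overlap, through its chromatin, its transcription or pairing with its mRNA, and most are less abundant than that mRNA. A stranded library keeps the strand of the RNA, and only the strand decides whether a read in a shared exon is counted for the antisense gene or for its partner. Per the file header the counter was run with strand setting 1, which gives a read pair to the gene on the strand of the first mate. The orientation of the reads was not tested here, since the deposited values are counts. If the kit puts the first mate on the strand opposite to the RNA, the counts of a member would stand for RNA of its partner's strand. The setting was the same for every gene, so the counts of PRMT6 and of the markers would then also be of the opposite strand.

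The overlaps below show what the strand has to decide. Each pair of lines gives the same base pairs of GRCh38, taken from transcripts of GENCODE release 29 and read 5′ to 3′ along the member and then along the partner, and the capitals mark bases that are exon of both genes. The stretch of EZR-AS1 and EZR is their entire overlap of 24 bases (chr6:158818082-158818105), and the others are windows of 30 bases within longer or equal overlaps. CD81-AS1 and CD81 meet at chr11:2377586-2377615, which is also all they share. The window of PCNA-AS1 lies at chr20:5119762-5119791, and that of HIF1A-AS2 at chr14:61747634-61747663. These pairs were chosen after their values were seen, as short overlaps with high counts (EZR-AS1, CD81-AS1) and as members with large fold changes (PCNA-AS1, HIF1A-AS2).
EZR-AS1: TGGTTTCGGCATTTTCGGTTTCTG
EZR: CAGAAACCGAAAATGCCGAAACCA
CD81-AS1: CCAGAAGACGAAATTGAAGACGAAGAGCAG
CD81: CTGCTCTTCGTCTTCAATTTCGTCTTCTGG
PCNA-AS1: TGAGGATGGAGCCCTGGACCAGGCGCGCCT
PCNA: AGGCGCGCCTGGTCCAGGGCTCCATCCTCA
HIF1A-AS2: GTTCCAGGTTTAACAATTTCATAGGCCAAA
HIF1A: TTTGGCCTATGAAATTGTTAAACCTGGAAC

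Most members shared only part of their exons with the partner. Shared bases ran from 4 to 4364 with a median of 279.5, and the median share of a member's exon bases was 15.5%. For 130 members the partner was the gene in their own name. The pairs met tail to tail in 55 cases and head to head in 52, while the member lay inside the partner's span in 38 and the partner inside the member's in 3. In GENCODE release 29 (GRCh38), 142 members were found by symbol and strand, and 118 of these are typed as antisense, 15 as processed transcripts and 5 as lincRNA. Some exon base lay opposite a coding exon in 150 of the 151 members, the exception being TGFB2-AS1. The median member had 22.3% of its exon bases opposite a coding exon and 83.5% opposite the body of a coding gene. Coding exons on the same strand covered part of 6 members, up to 100% of HNRNPU-AS1 and SPTY2D1-AS1, 98% of ZSWIM8-AS1 and 96.6% of TOPORS-AS1, so counts of these members cannot be told apart from those of a same-strand coding gene. PINK1-AS shares same-strand exon bases with DDOST, and a read there was added to both genes.

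How often an antisense-named gene was counted went with whether it has an exon opposite another exon. Of 446 antisense-named genes with opposite-strand exon overlap, 151 reached 100 counts over the 3 libraries (33.9%), the 3 left-out genes included. Only 3 of the 553 without such overlap did (0.542%), and these are the 3 members without a partner. Overlap here is by the deposited gene models. By GENCODE release 29, PTOV1-AS1, RBM12B-AS1 and CIRBP-AS1 have 66.6%, 12.7% and 0.295% of their exon bases opposite a coding exon. At 10 counts the shares were 62.8% with overlap (280 genes) and 15.2% without (84 genes). Genes with other names showed an order in the same direction, with 24.3% of 3149 overlapping genes and 4.41% of 22277 non-overlapping genes at 100 counts. Genes named as intronic transcripts give a contrast on the host's own strand. These are 60 genes with a name ending in -IT and a digit, 52 of them with the host gene on the same strand, and 0 of the 60 reached 10 counts. All 60 together held 5 counts in siPRMT6-1, 7 in siPRMT6-2 and 7 in siNC. The classes were not matched for gene length or kind of gene, and the part of these in the shares was not tested.

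**Figure D1:**
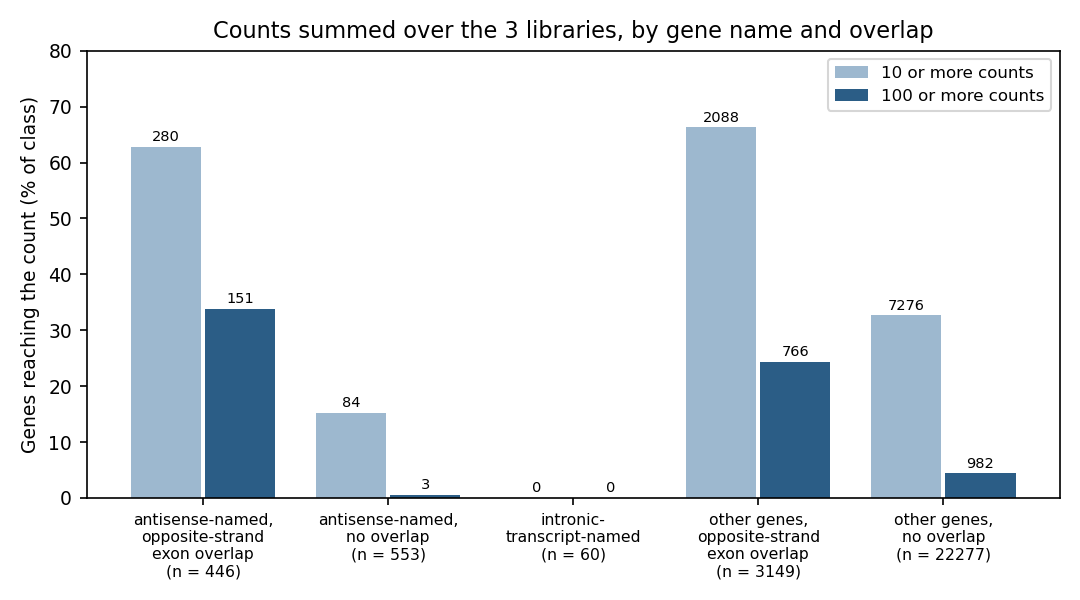
Share of genes (percent of each class, vertical axis) that reached 10 or 100 counts summed over the 3 libraries, with the number of genes above each bar. Classes are by gene name and opposite-strand exon overlap in the deposited gene models. Antisense-named genes with overlap reached 100 counts in 33.9%, those without in 0.542%, and none of the 60 intronic-transcript-named genes reached 10 counts.

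The 151 members took a large part of the libraries. They held 34301 counts in siPRMT6-1 (8.99% of the library), 30753 in siPRMT6-2 (8.49%) and 40644 in siNC (9.89%). Their 146 distinct partners held 5029 counts in siPRMT6-1, 4351 in siPRMT6-2 and 5245 in siNC. Per exonic kb the member lay above its partner in 145 of 148 pairs in siPRMT6-1, 146 in siPRMT6-2 and 145 in siNC. The median partner stood at 4.09% of its member's counts per exonic kb in siPRMT6-1, 4.80% in siPRMT6-2 and 4.31% in siNC. In siNC the median member had 79.9 counts per exonic kb, the median partner 3.07, and the median of the 9728 genes with 10 or more summed counts was 3.90. Partners at 0 counts numbered 5 in siPRMT6-1, 4 in siPRMT6-2 and 6 in siNC. By the way the genes meet, the member was above in siNC in 54 of 55 tail to tail, 51 of 52 head to head, 37 of 38 with the member inside the partner's span and 3 of 3 with the partner inside the member's.

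**Figure D2:**
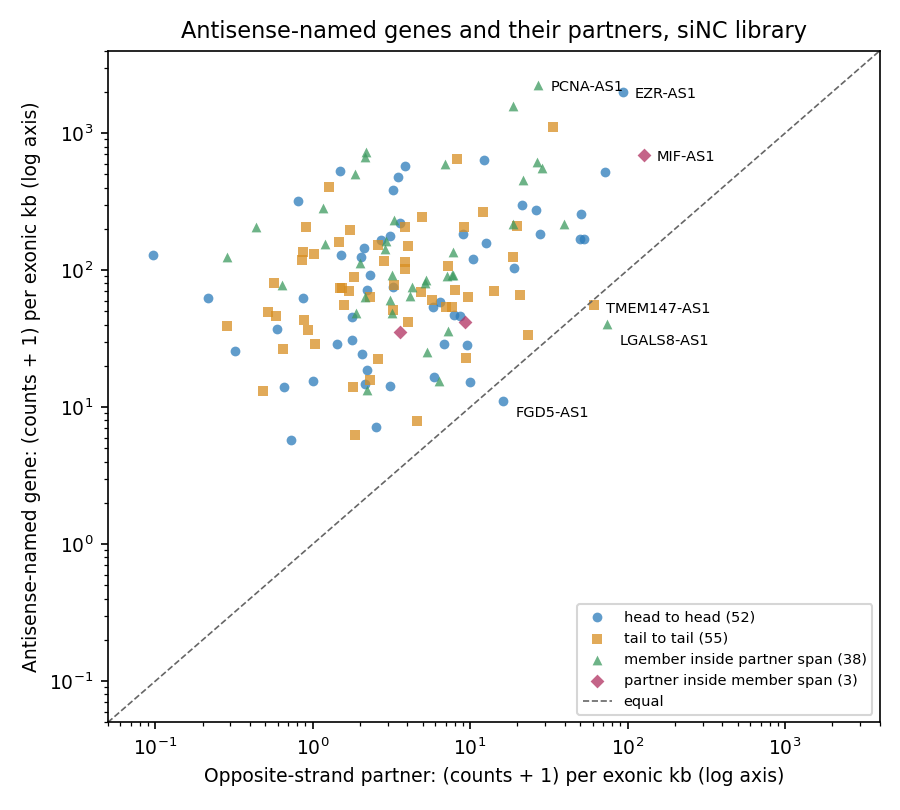
Counts plus 1 per exonic kb in siNC of each antisense-named gene (vertical, log axis) against its opposite-strand partner (horizontal, log axis) for 148 pairs, with the shape of a point giving how the genes meet and the dashed line marking equal levels. All but 3 pairs lie above the line, and the 3 below it are LGALS8-AS1, FGD5-AS1 and TMEM147-AS1.

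The member with the most counts was MIF-AS1, which spans MIF, the gene of the cytokine macrophage migration inhibitory factor (chr22:23893710-23898930, minus strand). It had 2671 counts in siPRMT6-1, 1921 in siPRMT6-2 and 3037 in siNC. MIF, opposite it, had 140, 98 and 141 counts in siPRMT6-1, siPRMT6-2 and siNC, which in siNC is 126 per exonic kb against 693 for MIF-AS1. MIF-AS1 was highest in siNC and lowest in siPRMT6-2.

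TMPO-AS1 lies head to head with TMPO, which encodes lamina-associated proteins of the nuclear envelope (chr12:98512973-98516226, minus strand). Its counts were 1623 in siPRMT6-1, 1294 in siPRMT6-2 and 2010 in siNC, beside 81, 65 and 85 for TMPO in siPRMT6-1, siPRMT6-2 and siNC. SLC25A5-AS1, opposite the ADP/ATP carrier gene SLC25A5, had 1328 counts in siPRMT6-1, 1143 in siPRMT6-2 and 1615 in siNC. PLCG1-AS1 is named for the phospholipase gene PLCG1 but shares most exon bases with TOP1, which encodes DNA topoisomerase I, and had 905 counts in siPRMT6-1, 933 in siPRMT6-2 and 1155 in siNC. In each of these 3 members both knockdown libraries lay below siNC. Fewer counts fell on SMARCA5, the gene of the ATPase of ISWI chromatin remodellers, with 18 counts in siPRMT6-1, 19 in siPRMT6-2 and 16 in siNC. SMARCA5-AS1, which lies inside its span, had 831 counts in siPRMT6-1, 942 in siPRMT6-2 and 772 in siNC, both knockdown libraries above siNC. Opposite PAX8, a transcription factor of endometrial and other epithelia, PAX8-AS1 had 856 counts in siPRMT6-1, 1056 in siPRMT6-2 and 1000 in siNC. Also among the 10 most counted were CEBPB-AS1, PRC1-AS1 and SLCO4A1-AS1, with 561 to 1004 counts in each library, opposite a transcription factor, a cytokinesis protein and an anion transporter.

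High counts were found with long and with short overlaps. PCNA-AS1 (chr20:5119586-5119969, plus strand) lies wholly within exon bases of PCNA, the sliding clamp of DNA replication, and had 2266 counts per exonic kb in siNC, against 26.4 for PCNA. EZR-AS1 (chr6:158817979-158822239, plus strand), opposite the membrane linker gene EZR, had 2000 per exonic kb in siNC against 92.7 for EZR, with the 24 shared bases printed above. CD81-AS1 (chr11:2328749-2377992, minus strand) had 170 counts per exonic kb in siNC against 52.4 for CD81, a tetraspanin, with 30 shared bases. The deposited counts do not say where along a gene its reads lie. Across the members, counts per exonic kb in siNC and the GENCODE share opposite coding exons had a Spearman correlation of 0.26, and across the 148 pairs member and partner levels had one of 0.27. Both are across genes of the same library and are a description.

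In a few pairs the partner was the higher gene. LGALS8-AS1, inside the span of the galectin gene LGALS8, had 38 counts in siPRMT6-1, 74 in siPRMT6-2 and 57 in siNC. LGALS8 had 418, 317 and 495 in siPRMT6-1, siPRMT6-2 and siNC, or 187% of the member's counts per exonic kb in siNC, while in siPRMT6-2 the member was the higher with 51.4 per exonic kb against 47.5. HEATR1, a ribosome biogenesis gene, also lies opposite LGALS8 and shares 2095 exon bases with it. FGD5-AS1, with the orphan nuclear receptor gene NR2C2 as partner, had 52 counts in siPRMT6-1, 37 in siPRMT6-2 and 48 in siNC, against 178, 100 and 137 for NR2C2 in siPRMT6-1, siPRMT6-2 and siNC. TMEM147-AS1 and GAPDHS, the sperm form of glyceraldehyde-3-phosphate dehydrogenase, were close to level, with 92, 75 and 90 counts for the member and 86, 79 and 90 for the partner in siPRMT6-1, siPRMT6-2 and siNC. Next in order were PINK1-AS, DHRS4-AS1 and ASMTL-AS1, whose partners stood at 68.8%, 61.8% and 56.4% of the member's level in siNC.

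Choosing pairs by the partner gave another picture. Among antisense-named genes whose partner alone reached 100 counts, 63 pairs in all, the antisense-named gene was the higher per exonic kb in 34 in siPRMT6-1, 35 in siPRMT6-2 and 33 in siNC. With the minimum set on the sum of a pair it was the higher in 161 of 194 in each library. Where both genes of a pair reached 100 counts, it was the higher in 32 of 35 in siPRMT6-1, 33 in siPRMT6-2 and 32 in siNC. Among the 30 of the 63 pairs with the partner higher in siNC, LGALS8-AS1, FGD5-AS1 and TMEM147-AS1 are the members, and the other antisense-named genes had fewer than 100 summed counts. The non-members named next were chosen after their values were seen. PCED1B-AS1 had 0 counts in siPRMT6-1, 0 in siPRMT6-2 and 1 in siNC beside 977, 1002 and 1030 for PCED1B in siPRMT6-1, siPRMT6-2 and siNC. PCED1B also lies opposite AMIGO2, which shares 123 exon bases with it and had 44, 36 and 45 counts in the same order. ENTPD1-AS1 was at 0 in all 3 libraries beside 463, 275 and 360 for ENTPD1, and ENO1-AS1 had 14, 11 and 15 beside 541, 523 and 650 for the glycolytic gene ENO1, each in siPRMT6-1, siPRMT6-2 and siNC. In the same 30 pairs 8 partners (26.7%) lay opposite a further gene without an antisense name, against 1 of the 33 others (3.03%). The 63 pairs were chosen by the partner's counts, which favours the partner, as the members' rule favours the member. In 30 of them most counts per kb in siNC were not on the antisense-named side. The part that further genes have in this was not tested.

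The comparison of knockdown with control passed no member. edgeR's quasi-likelihood test with Benjamini-Hochberg adjustment over 6803 genes called 0 of 151 members, beside 0 of all genes tested (0.0%), and the lowest adjusted p of a member was 1.00. At an unadjusted p under 0.05, edgeR gave 186 of all genes and DESeq2 gave 13. Among the members edgeR gave 1 that was lower, MYLK-AS1, where 0.706% of all genes tested and 0.736% of those with at least 100 counts were lower. It gave 0 higher members, where 2.03% and 1.37% of those genes were higher, and DESeq2 gave 0 members in either direction. The fit had 1 residual degree of freedom, the spread between the siRNAs, and takes the lone control to be as variable as the knockdown libraries. What follows are therefore ratios between single libraries, and in bulk RNA fewer cells of a kind and less RNA per cell cannot be told apart. Their intervals are 95% exact binomial, cover counting error only, and compare libraries, not conditions. Both comparisons share the siNC library.

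More members were below siNC than above it with either siRNA. The median log2 fold change was −0.16 with siPRMT6-1 and −0.16 with siPRMT6-2. Over all genes tested it was 0.00 and −0.00, and over the 1902 tested genes with at least 100 counts, which share the members' minimum, −0.06 and −0.10 with siPRMT6-1 and siPRMT6-2. Both knockdown libraries lay below siNC for 71 members (47.0%), against 30.8% of all genes tested and 37.4% of those 1902 genes. Both lay above siNC for 24 members (15.9%), against 30.7% and 21.3%. With siPRMT6-1 the interval of the ratio lay wholly below 1 for 46 members (30.5%), beside 7.39% of all genes and 16.0% of those with at least 100 counts, and wholly above 1 for 11 (7.28%), beside 5.7% and 8.57%. With siPRMT6-2 it lay wholly below 1 for 51 members (33.8%), beside 9.07% and 20.7%, and wholly above 1 for 22 (14.6%), beside 9.47% and 11.6%. Deeper genes have narrower intervals, and the median summed count was 340 for the members and 190 for the 1902 genes.

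With siPRMT6-1, 5 members were lower than siNC by a fold of 2 or more (3.31%, where 4.44% of all genes tested and 2.1% of those with at least 100 counts were lower), and 0 were higher (4.84% of all genes and 0.736% of those with at least 100 counts were higher). With raw library totals in place of TMM the count of lower members was 3. These 5 were PCNA-AS1, HIF1A-AS2, NUCB1-AS1, PITRM1-AS1 and MYLK-AS1, and apart from MYLK-AS1 they were chosen for naming after their values were seen. PCNA-AS1 had 335 counts in siPRMT6-1, 717 in siPRMT6-2 and 870 in siNC, so siPRMT6-1 alone was low. Its depth-scaled level in siPRMT6-1 was 0.399 of that in siNC (interval 0.35 to 0.453), and that in siPRMT6-2 was 0.958 (0.867 to 1.06). PCNA on the other strand had 12, 33 and 38 counts in siPRMT6-1, siPRMT6-2 and siNC, with ratios to siNC of 0.327 (0.156 to 0.639) and 1.01 (0.614 to 1.65).

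HIF1A, which encodes the oxygen-regulated subunit of hypoxia-inducible factor, has a member at each end, and these gave like ratios. HIF1A-AS2 (chr14:61747039-61749089, minus strand), over its 3′ part, had 191 counts in siPRMT6-1, 338 in siPRMT6-2 and 421 in siNC. HIF1A-AS1 (chr14:61681041-61695823, minus strand), at the 5′ end and also named after its values were seen, had 204 counts in siPRMT6-1, 319 in siPRMT6-2 and 376 in siNC. With siPRMT6-1 their ratios to siNC were 0.47 (0.394 to 0.559) and 0.562 (0.471 to 0.668), and with siPRMT6-2 0.933 (0.807 to 1.08) and 0.986 (0.847 to 1.15). HIF1A itself had 8, 16 and 16 counts in siPRMT6-1, siPRMT6-2 and siNC, and its ratio of 0.518 with siPRMT6-1 has an interval of 0.192 to 1.28. NUCB1-AS1, inside the span of the Golgi calcium-binding gene NUCB1, had 323 counts in siPRMT6-1, 654 in siPRMT6-2 and 687 in siNC. NUCB1 had 24, 57 and 47 in siPRMT6-1, siPRMT6-2 and siNC, a ratio of 0.529 (0.309 to 0.882) with siPRMT6-1 beside 0.487 (0.425 to 0.556) for the member. PITRM1-AS1 was low with both siRNAs, with 178 counts in siPRMT6-1, 236 in siPRMT6-2 and 377 in siNC. PITRM1, a mitochondrial peptidase gene, had 6, 11 and 26 in siPRMT6-1, siPRMT6-2 and siNC.

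With siPRMT6-2, 2 members were higher by a fold of 2 or more (1.32%, where 8.08% of all genes and 3.52% of those with at least 100 counts were higher). Another 5 were lower (3.31%, beside 5.41% and 3.36%). The higher members were ARNTL2-AS1 and NAPA-AS1, the second named after its values were seen. ARNTL2-AS1 meets ARNTL2, a circadian clock transcription factor gene, tail to tail, and had 26 counts in siPRMT6-1, 76 in siPRMT6-2 and 29 in siNC, a ratio to siNC of 3.05 (1.96 to 4.85) with siPRMT6-2. ARNTL2 had 9, 21 and 6 counts in siPRMT6-1, siPRMT6-2 and siNC. NAPA-AS1, opposite the vesicle fusion gene NAPA, had 107 counts in siPRMT6-1, 243 in siPRMT6-2 and 134 in siNC, and NAPA had 21, 32 and 16 in siPRMT6-1, siPRMT6-2 and siNC. For both, siPRMT6-2 alone was high.

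The 5 lower members with siPRMT6-2 were EGFR-AS1, HLTF-AS1, PTPRG-AS1, SEMA6A-AS1 and SLC7A11-AS1, named after their values were seen. SLC7A11-AS1, opposite the cystine transporter gene SLC7A11, had 95 counts in siPRMT6-1, 43 in siPRMT6-2 and 134 in siNC, and its ratio to siNC was 0.734 (0.558 to 0.962) with siPRMT6-1 and 0.373 (0.258 to 0.53) with siPRMT6-2. PTPRG-AS1 had 101 counts in siPRMT6-1, 57 in siPRMT6-2 and 148 in siNC, and PTPRG, a receptor tyrosine phosphatase gene, had 31, 18 and 46 in siPRMT6-1, siPRMT6-2 and siNC. EGFR-AS1, inside the growth factor receptor gene EGFR, had 181 counts in siPRMT6-1, 84 in siPRMT6-2 and 210 in siNC. HLTF-AS1, head to head with the DNA translocase gene HLTF, had 195, 88 and 218, and SEMA6A-AS1, inside the semaphorin gene SEMA6A, had 90, 44 and 108, each in siPRMT6-1, siPRMT6-2 and siNC. In these 5 the siPRMT6-2 library was the lowest and siNC the highest.

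**Figure D3:**
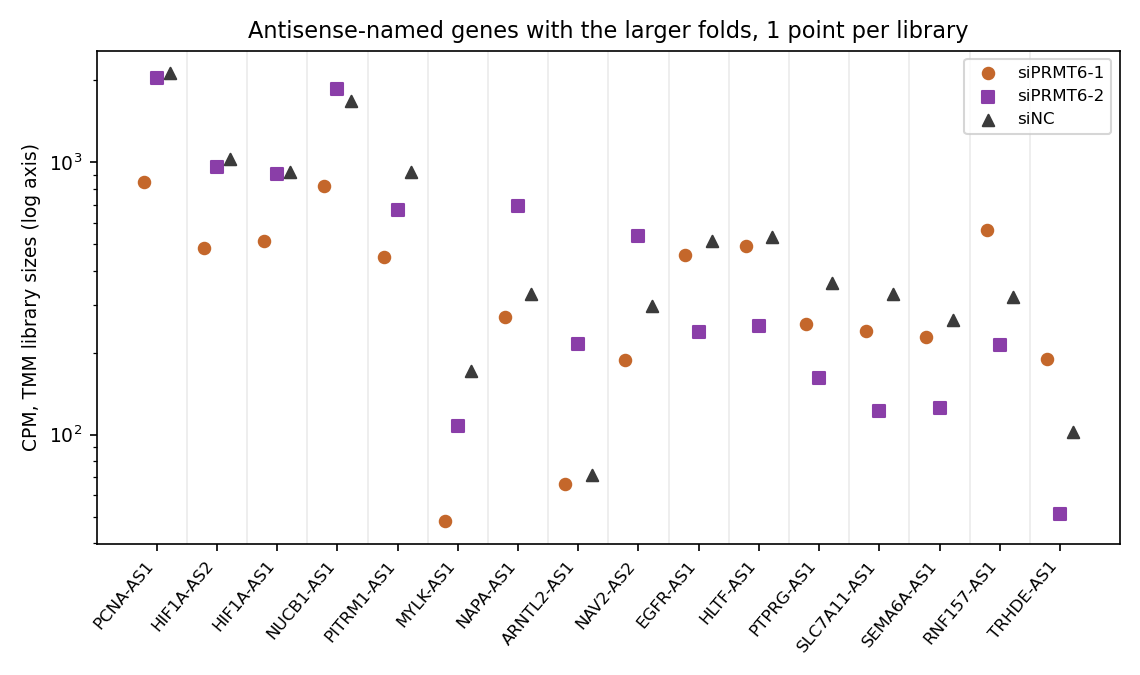
Depth-scaled counts (CPM with TMM library sizes, log axis) of 16 antisense-named genes in siPRMT6-1, siPRMT6-2 and siNC, 1 point per library: the 12 with a fold of 2 or more in either library, with HIF1A-AS1, NAV2-AS2, RNF157-AS1 and TRHDE-AS1. In PCNA-AS1, HIF1A-AS1, HIF1A-AS2 and NUCB1-AS1 siPRMT6-1 is the low point and the other libraries lie close together.

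Members on the same side of siNC with both siRNAs were ranked by the smaller of their 2 changes. Lower with both were NEXN-AS1, RASGRF2-AS1, STXBP5-AS1, MYLK-AS1 and RUSC1-AS1. NEXN-AS1, opposite the actin-binding gene NEXN, had 47 counts in siPRMT6-1, 40 in siPRMT6-2 and 85 in siNC, with ratios of 0.572 (0.392 to 0.827) and 0.547 (0.366 to 0.806) for siPRMT6-1 and siPRMT6-2. STXBP5-AS1 had 42, 42 and 78 counts and RASGRF2-AS1 28, 23 and 49 in siPRMT6-1, siPRMT6-2 and siNC. RUSC1-AS1, the deepest of the 5, had 149 counts in siPRMT6-1, 130 in siPRMT6-2 and 230 in siNC, while RUSC1 had 19, 25 and 13 in siPRMT6-1, siPRMT6-2 and siNC. MYLK-AS1, opposite the myosin light chain kinase gene MYLK, had 19 counts in siPRMT6-1, 38 in siPRMT6-2 and 70 in siNC. Its edgeR log2 fold change was −1.13 (SE 0.517) with an adjusted p of 1.00. MYLK had 17, 14 and 14 counts in siPRMT6-1, siPRMT6-2 and siNC.

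Higher with both were AP4B1-AS1, TOPORS-AS1, RNF217-AS1, ST7-AS2 and ST7-AS1. AP4B1-AS1, opposite an adaptor subunit gene of vesicle sorting, had 115 counts in siPRMT6-1, 104 in siPRMT6-2 and 83 in siNC, with ratios of 1.43 (1.07 to 1.93) and 1.46 (1.08 to 1.97) for siPRMT6-1 and siPRMT6-2. AP4B1 had 7, 6 and 0 counts in siPRMT6-1, siPRMT6-2 and siNC. The other 4 had 25 to 44 counts in each library, and their intervals with siPRMT6-1 included 1. For TOPORS-AS1, which largely shares its strand with coding exons, the counts were 34 in siPRMT6-1, 41 in siPRMT6-2 and 25 in siNC. Opposite ST7, the members ST7-AS1 and ST7-AS2 had ratios of 1.22 and 1.27 with siPRMT6-1 and 1.3 and 1.65 with siPRMT6-2. With siPRMT6-2 the interval of ST7-AS2 lay wholly above 1, and that of ST7-AS1 did not.

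In the 5 members with the largest difference between the siRNAs, siNC lay between the knockdown libraries. TRHDE-AS1, opposite a peptidase gene, had 75 counts in siPRMT6-1, 18 in siPRMT6-2 and 42 in siNC, and the ratio of siPRMT6-2 to siPRMT6-1 was 0.27 (0.152 to 0.455). RNF157-AS1, opposite the ubiquitin ligase gene RNF157, had the same order with 223 counts in siPRMT6-1, 75 in siPRMT6-2 and 131 in siNC, and RNF157 had 41, 16 and 27 in siPRMT6-1, siPRMT6-2 and siNC. The order was turned round in NAV2-AS2, TIPARP-AS1 and ARNTL2-AS1. NAV2-AS2, inside the neuron navigator gene NAV2, had 74 counts in siPRMT6-1, 188 in siPRMT6-2 and 121 in siNC, and NAV2 had 26, 93 and 33 in siPRMT6-1, siPRMT6-2 and siNC. TIPARP-AS1 had 20 counts in siPRMT6-1, 59 in siPRMT6-2 and 35 in siNC, and the ratio of siPRMT6-2 to siPRMT6-1 was 3.31 (1.97 to 5.81). With 1 library per siRNA these differences have no replicate check.

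The folds of partners were set beside those of their members. Among 93 pairs whose partner had at least 30 summed counts, the log2 fold changes of member and partner had the same sign in 56 with siPRMT6-1 and 64 with siPRMT6-2. Their Pearson correlation across pairs was 0.45 with siPRMT6-1 and 0.54 with siPRMT6-2, and Spearman's was 0.30 and 0.48. With the partner's minimum at 100 counts, 35 pairs were left, with Pearson 0.32 and 0.58. In 390 opposite-strand pairs of other genes the sign was the same in 212 with siPRMT6-1 and 229 with siPRMT6-2. Pearson's values there were 0.22 and 0.40, and Spearman's were 0.16 and 0.19. Member and partner share a library, its scaling and a locus, genes are not independent replicates, and the difference between these correlations was not tested.

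**Figure D4:**
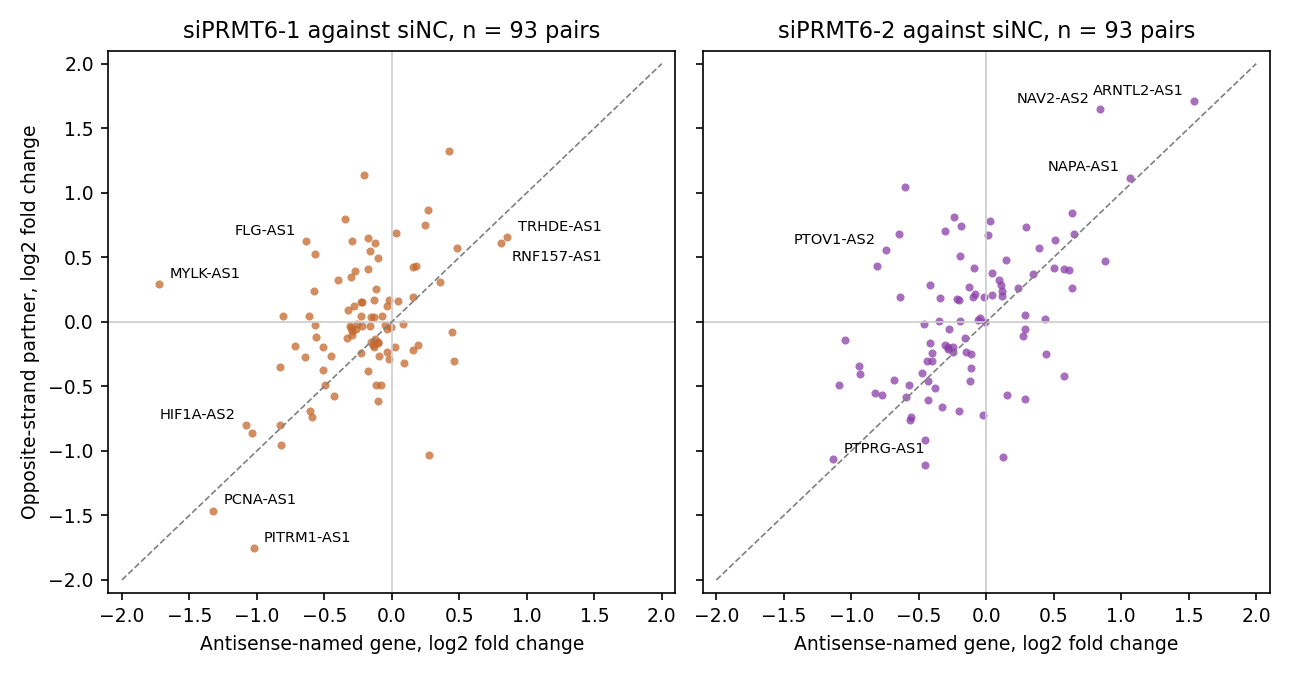
Log2 fold change against siNC of the antisense-named gene (horizontal) and its opposite-strand partner (vertical) in 93 pairs with at least 30 summed partner counts, for siPRMT6-1 on the left and siPRMT6-2 on the right, with equal change dashed. The cloud runs along the diagonal with wide scatter (Pearson 0.45 and 0.54), with PCNA-AS1 low with siPRMT6-1 and ARNTL2-AS1 high with siPRMT6-2.

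The split of counts between the strands was compared across libraries. The partner's share of the pair's counts had overlapping 95% exact binomial intervals in all 3 libraries in 139 of 148 pairs. For PCNA-AS1 and PCNA that share was 3.46% in siPRMT6-1 (1.80 to 5.96), 4.40% in siPRMT6-2 (3.05 to 6.12) and 4.19% in siNC (2.98 to 5.70), although both genes were low in siPRMT6-1. MIF took 4.98% of its pair in siPRMT6-1, 4.85% in siPRMT6-2 and 4.44% in siNC. With few partner counts these intervals are wide, so overlap does not show that the split was equal. The split was not computed for other opposite-strand pairs, so these numbers of pairs have no background beside them. In the other 9 pairs the intervals of some libraries did not overlap. Among them was FLG-AS1 with FLG, the filaggrin gene, named after its values were seen. FLG-AS1 had 470 counts in siPRMT6-1, 441 in siPRMT6-2 and 758 in siNC, while FLG had 532 in siPRMT6-1, 180 in siPRMT6-2 and 356 in siNC. FLG thus took 53.1% of the pair in siPRMT6-1 (49.95 to 56.2), 28.99% in siPRMT6-2 (25.4 to 32.7) and 32.0% in siNC (29.2 to 34.8). PTOV1 took 11.1% of its pair with PTOV1-AS2 in siPRMT6-1, 15.5% in siPRMT6-2 and 6.86% in siNC. The rest were KDM4A-AS1, LGALS8-AS1, MYLK-AS1, PAX8-AS1, RUSC1-AS1, ST7-AS1 and UCKL1-AS1.

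Of 64 antisense RNAs that have been studied by name and stand in the table, 14 were members and 11 were at 0 in all libraries. Besides HIF1A-AS1, HIF1A-AS2, PCNA-AS1, TMPO-AS1, FGD5-AS1, DHRS4-AS1, ST7-AS1 and RUSC1-AS1, these members were MCM3AP-AS1, PXN-AS1, MAPKAPK5-AS1, AFAP1-AS1, HOXB-AS1 and HOXB-AS3. PXN-AS1, opposite the focal adhesion gene PXN, had 111 counts in siPRMT6-1, 118 in siPRMT6-2 and 203 in siNC, with ratios of 0.566 (0.445 to 0.717) and 0.676 (0.534 to 0.852) for siPRMT6-1 and siPRMT6-2. MCM3AP-AS1 had 363, 261 and 329 counts and AFAP1-AS1 92, 85 and 107 in siPRMT6-1, siPRMT6-2 and siNC, and for these the intervals of both ratios included 1. None of the members had a partner among 85 listed interferon-stimulated genes. PSMB8 is on that list, and PSMB8-AS1, which is named for it, had been left out by the rule. At the edge of the rule RASGRF2-AS1 and TOPORS-AS1 had 100 summed counts each, and EHHADH-AS1 with 97 and CCDC144NL-AS1 with 94 lay just outside.

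Promoter windows, 250 bases before to 50 after a gene's start, were found in RefSeq (GRCh38.p14) for 103 members, with 117 windows. The window of PCNA-AS1 (chr20:5119336-5119635, plus strand) is printed because this member and PCNA were low together with siPRMT6-1, and its capitals mark matches of TTTNGCGC, an E2F-type motif, and of CCAAT, searched on both strands.
PCNA-AS1: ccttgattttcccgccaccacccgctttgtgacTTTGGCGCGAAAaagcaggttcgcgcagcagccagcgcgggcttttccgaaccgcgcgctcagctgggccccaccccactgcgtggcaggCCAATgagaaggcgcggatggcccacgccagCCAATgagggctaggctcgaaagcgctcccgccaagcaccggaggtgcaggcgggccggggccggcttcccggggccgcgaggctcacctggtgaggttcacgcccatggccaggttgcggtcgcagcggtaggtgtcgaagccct
This window holds 2 matches of TTTNGCGC, which overlap on opposite strands, and 2 of CCAAT. Both windows of PCNA itself hold 0 matches of TTTNGCGC, with 3 of CCAAT in one and 2 in the other. TTTNGCGC was found in 2.56% of the members' windows (3 of 117), 0.51% of the partners' (1 of 196) and 1.79% of all 35116 windows, and CCAAT in 30.8%, 37.2% and 34.6%. GGGCGG was in 40.2% of members' windows, 58.7% of partners' and 45.0% of all, and TATAAA in 10.3%, 10.7% and 11.5%. A match of letters is not a binding site.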

How the data were processed

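The deposited table holds the authors' whole-number counts per gene, not normalized. The submitters' processing notes name STAR 2.7.8a and featureCounts 2.0.10 with build hg38; per the file headers, featureCounts was 2.0.1, with UCSC hg38 exons grouped by gene name, strand setting 1 and a read in several overlapping same-strand genes added to each. The way duplicates were removed is not stated. Columns were matched to libraries through the labels' descriptions, which write si2 for siPRMT6-1 and si3 for siPRMT6-2.

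The members, gene lists and tests were chosen with earlier results of these data known. Overlaps were computed from the exons in the table. edgeR 4.0.16 in R 4.3.3 (quasi-likelihood, TMM, filterByExpr with 10 and 15 counts, two-sided, Benjamini-Hochberg adjusted p under 0.05) was fitted on all 6803 genes kept, with a prior of 12.8 degrees of freedom, and was tested on simulated data; DESeq2 1.42.0 was an alternative. Each siRNA's fold change is the difference of log2 CPM from siNC, with 2 as prior count, and a fold of 2 counts as a call. The spread behind the p-values is that of these libraries and may be technical. At 0 counts, the floor of 3 counts equals 7.60 CPM in siPRMT6-1, 8.53 in siPRMT6-2 and 7.34 in siNC. Intervals and floors cover counting error only.

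Members were named by rule: the 10 with most counts, up to 5 higher and 5 lower with both siRNAs by the smaller change, the 5 with the largest difference between siRNAs, the 6 whose partner was highest, and the 2 genes on each side of the minimum. Others are marked as chosen after their values were seen. A member that the rule names is not reported here.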

Additional observations from a re-analysis of the deposited data

How the results depend on the processing

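The 0 members called by edgeR stayed at 0 with DESeq2, the older quasi-likelihood fit, RLE scaling and no filter. With a minimum of 50 summed counts (209 members), 5 members were higher by a fold of 2 with siPRMT6-1 and 5 with siPRMT6-2, and with a minimum of 200 (106 members) 1 with siPRMT6-2. With raw library totals 3 were lower with siPRMT6-1. The shares over all genes were not computed under these settings, so these counts of members have no background beside them. The median log2 fold change was −0.11 with raw totals, −0.12 at a minimum of 50 and −0.15 at 200 with siPRMT6-1. With siPRMT6-2 it was −0.19 with raw totals, −0.16 with a prior count of 0.5 and −0.10 at a minimum of 50. The mean of both siRNAs gave −0.17, and leaving out either knockdown library gave −0.16 to −0.16. Choosing pairs by the partner alone favours the partner. It left the antisense-named gene higher in 34, 35 and 33 of 63 pairs in siPRMT6-1, siPRMT6-2 and siNC. The median log2 ratio of member to partner per exonic kb (4.40, 4.29 and 4.45) was 2.93, 2.78 and 3.12 on counts as deposited and 6.90, 6.78 and 7.19 per shared base. It was 4.51 in siPRMT6-1 with 0.5 counts added and 4.54 in siNC with at least 100 shared bases. The other 46 settings of these results and all 186 of single members stayed close to the main value. Counts were compared there as numbers and not as shares. With the minimum on a pair's sum, the antisense-named gene was higher in 161 of 194 pairs in siNC, against 145 of 148. No paired analysis was possible because the groups share fewer than 2 replicate numbers. Leaving out a library leaves 1 against 1, with no test. Depth limits most partners, at a median of 3.07 counts per exonic kb in siNC.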
